A study of Homo sapiens with 30 samples.

Results

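The BCL2 family decides whether the outer membrane of the mitochondrion is opened during apoptosis, and 10 of its genes were followed here by their symbols. They are the pro-survival genes BCL2, BCL2L1 (BCL-XL), MCL1 and BCL2A1, the BH3-only genes BCL2L11 (BIM), BMF, BBC3 (PUMA) and PMAIP1 (NOXA), and the pore-forming genes BAX and BAK1. All 10 were found among the 25680 gene symbols of the files, and all 10 are among the 16409 genes that passed the low-count filter. Each was read from the RefSeq transcript with the highest mean count. BCL2A1 passed the filter only through its counts in H929.

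RNA was sequenced from OPM2 and H929, established human multiple myeloma cell lines, that is, lines of malignant plasma cells. Cells of each line received either 100 nM dBRD9-A or its solvent DMSO for 24 h, and each of the 4 groups holds 3 libraries. dBRD9-A is a small molecule that directs BRD9 to degradation, a bromodomain protein of the chromatin remodeller called non-canonical BAF. Each genetic background is 1 cell line, so a difference between lines is a difference between OPM2 and H929 as cultured here. The other 18 of the 30 listed samples, with hairpins against luciferase or BRD9 or from polysomes, were not analysed here.

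Pro-survival members hold the activators and pore formers in check by binding their BH3 domains in a groove. BH3-only proteins fill that groove or activate BAX and BAK1 directly, and the pore formers then release cytochrome c into the cytosol, where it starts the caspase cascade. Myeloma cells are known for relying on MCL1, on BCL2 or on BCL2L1 to different degrees, which is the reason that drugs against these proteins are studied in this disease.

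Both lines carried the plasma cell markers: all 10 genes of that list (among them SDC1, CD38, PRDM1 and XBP1) were above 1 CPM in every group. CPM are counts per 1000000 counts of the library, scaled by TMM factors. The summed level of the list was 12200 to 14600 CPM in OPM2 with DMSO, 7070 to 8080 with dBRD9-A, 16000 to 17400 in H929 with DMSO and 9590 to 10900 with dBRD9-A. Of 6 lists of markers of other cell types, most members were near 0. CD3E in H929 (the T cell list summed to 23.3 to 25.6 CPM with DMSO and 36.7 to 39.7 with dBRD9-A), KRT8 and KRT18 in H929, joined by CDH1 with dBRD9-A (epithelial list 8.39 to 11.2 and 15.6 to 24.8), CSF1R in H929 (myeloid list 1.57 to 4.16 and 5.12 to 10.6), COL1A1 in H929 with dBRD9-A (stromal list 1.06 to 2.36) and HBB in OPM2 (erythroid list 5.91 to 6.58 and 3.21 to 4.50) were above 1 CPM. The B cell list stayed at or below 1.27 CPM. The part of these levels in the results was not tested, and in bulk RNA fewer cells of a type and less RNA per cell cannot be told apart.

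The 2nd treated OPM2 library, OPM2 dBRD9-A replicate 2, differed strongly from all others. It held 24524190 counts against 42895388 to 76600949 in the other 11. Its log2 deviation from its group mates had an SD of 0.79 over 9281 genes and a Spearman correlation of -0.70 with transcript GC content across genes, against an SD of 0.11 to 0.24 in the 9 libraries of the other groups. Such GC correlations were also large in the 1st and 2nd treated libraries of H929, at -0.62 (-0.625) and 0.65 (0.645), with SDs of 0.197 and 0.241. The group mates of replicate 2 had 0.64 and 0.71. Each of them was set against a mean that includes replicate 2, so these 2 values are not separate from its own. Values of the members without this library are given where leaving it out changes the call or the direction, and the counts of the pathway lists without it stand beside those lists. BRD9 mRNA, the transcript of the degraded protein, was at 89.2, 86.0 and 94.0 CPM in OPM2 with DMSO and at 67.1, 80.9 and 81.1 with dBRD9-A. It was at 79.9, 103.2 and 79.9 CPM in H929 with DMSO and at 59.2, 60.3 and 71.5 with dBRD9-A. The edgeR log2 fold changes were -0.23 in OPM2 (adjusted p = 0.241) and -0.46 in H929 (adjusted p = 0.0391), a call lost in 15 of 23 alternative settings with adjusted p up to 0.230. An mRNA level does not check the loss of the protein.

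**Figure D1:**
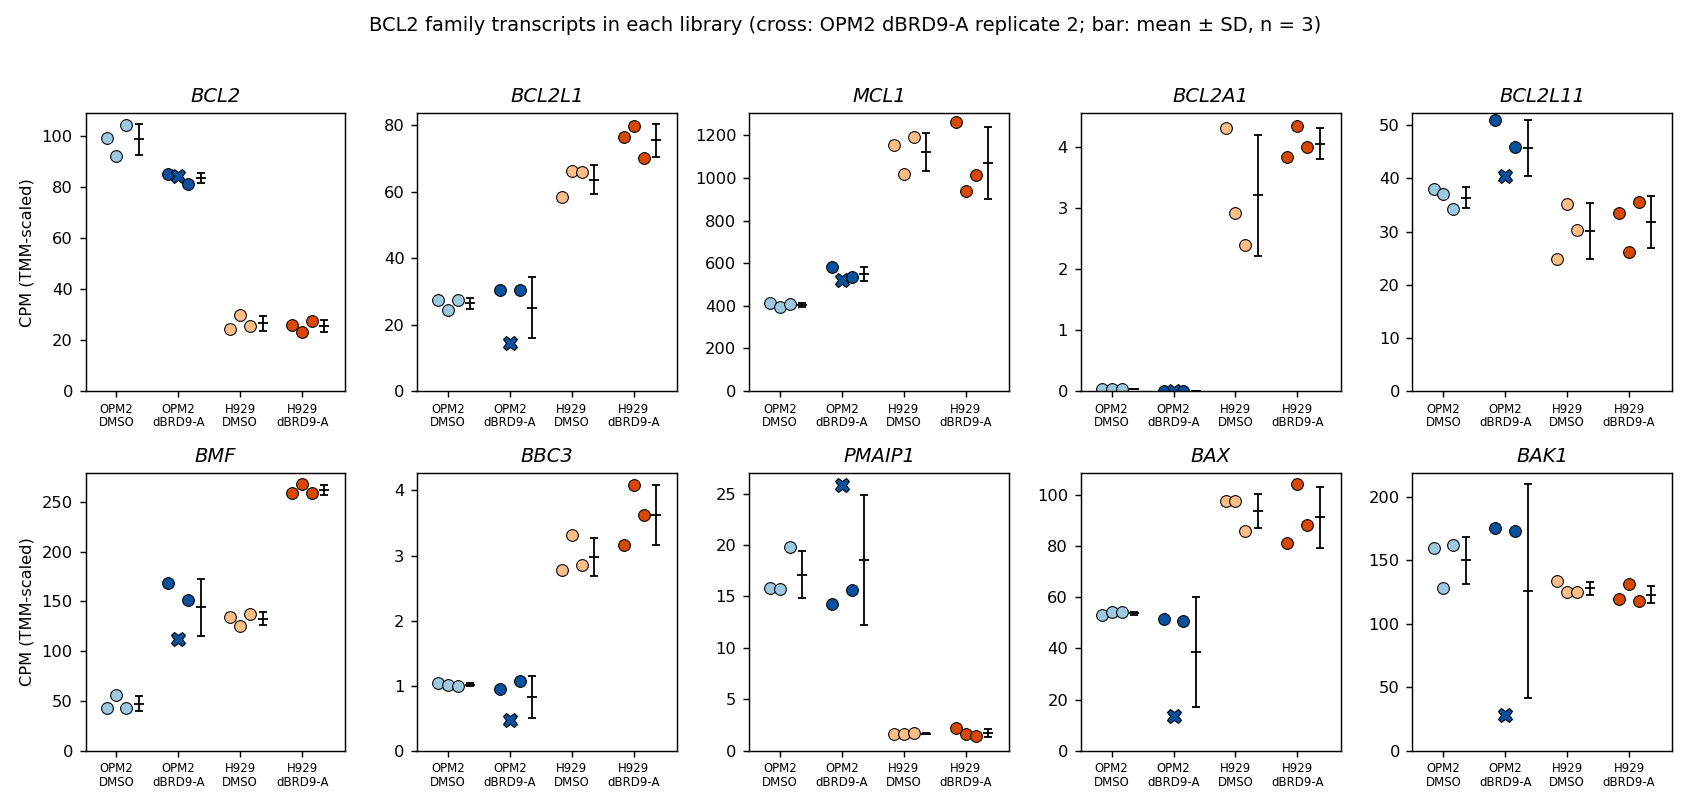
Level of each BCL2 family transcript (CPM, linear axis from 0) in the 12 libraries, with 1 panel per gene and 1 colour per group. Points are libraries, the cross is OPM2 dBRD9-A replicate 2, and bars are mean ± SD (n = 3). BMF is higher with dBRD9-A in every library of both lines, BCL2 and PMAIP1 are higher in OPM2, and the cross lies far below its group mates for BAX and BAK1.

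BMF was the member that rose with dBRD9-A in both lines. BMF is a BH3-only protein that binds dynein light chain and frees pore formers by occupying pro-survival proteins. In OPM2 it was at 42.8, 55.8 and 43.1 CPM with DMSO and at 168.8, 112.2 and 150.9 CPM with dBRD9-A. In H929 it was at 134.6, 125.6 and 137.6 CPM with DMSO and at 259.4, 267.8 and 259.0 CPM with dBRD9-A. In each line all 3 treated libraries lay above all 3 DMSO libraries, and the lowest treated OPM2 library was the replicate that stood apart.

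The log2 fold change of BMF was 1.61 ± 0.15 (SE) in OPM2, a 3.05-fold rise with a 95% interval of 1.27 to 1.94 on the log2 scale (edgeR adjusted p = 6.58e-05). In H929 it was 0.98 ± 0.15, a 1.98-fold rise with an interval of 0.65 to 1.31 (edgeR adjusted p = 0.00184). By p-value BMF ranked 48 of 16409 genes in OPM2 and 244 in H929. BMF kept its direction and its call in both lines under all 23 alternative settings, with log2 fold changes of 1.48 to 1.81 in OPM2 and 0.96 to 1.08 in H929 and adjusted p of at most 0.0157 and 0.0156. It was the 1 member of 10 called in both lines in the same direction, where 6.96% of all genes tested were.

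The rise brought BMF in treated OPM2, at 143.9 ± 28.95 CPM (SD, n = 3), to near the level of untreated H929, at 132.6 ± 6.24 CPM. In DMSO the lines differed 2.81-fold. The response in H929 minus that in OPM2 was -0.63 ± 0.21 on the log2 scale, with an unadjusted edgeR p of 0.0120 and an adjusted p of 0.344. Without OPM2 dBRD9-A replicate 2 it was -0.73, with an edgeR adjusted p of 0.0114. Of 22 alternatives, this one and limma-voom, which weights the libraries, gave the call, and over all of them the difference was -0.85 to -0.49 with adjusted p of 0.00146 to 0.763.

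The start of the BMF gene is shown because BMF is the member called in both lines. That of BCL2L11 is shown because it is a BH3-only neighbour in function that was not called and carries a forkhead match. The sequences are the 250 bases before each start site in RefSeq on GRCh38.p14, written 5′ to 3′ on the strand of the gene. Of the 10 members 9 had such an entry, with 11 windows in all. MCL1 had none and was not searched. Capitals mark matches to the 6 motifs searched on both strands, none of which overlapped here. The E-box was searched as CACGTG and the forkhead motif as GTAAACA. The AP-1 motif was TGANTCA, the GC box was GGGCGG and the TATA box was TATAAA. The core of an interferon response element was searched as the letters GAAA followed, after any 2 bases, by the same letters again. The 1st BMF line is the upstream start on chr15:40108880-40109129, minus strand. The 2nd is the other annotated start on chr15:40106967-40107216, minus strand. BCL2L11 is on chr2:111120664-111120913, plus strand.
BMF upstream start: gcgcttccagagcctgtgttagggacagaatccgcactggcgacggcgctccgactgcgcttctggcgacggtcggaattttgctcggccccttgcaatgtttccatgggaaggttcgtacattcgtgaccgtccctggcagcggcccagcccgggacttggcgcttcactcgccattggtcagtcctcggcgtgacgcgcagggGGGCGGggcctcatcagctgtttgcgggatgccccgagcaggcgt
BMF other start: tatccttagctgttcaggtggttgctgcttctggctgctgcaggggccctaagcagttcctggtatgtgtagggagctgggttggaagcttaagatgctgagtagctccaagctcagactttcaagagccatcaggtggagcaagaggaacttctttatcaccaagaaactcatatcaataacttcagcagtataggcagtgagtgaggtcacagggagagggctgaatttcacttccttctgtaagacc
BCL2L11: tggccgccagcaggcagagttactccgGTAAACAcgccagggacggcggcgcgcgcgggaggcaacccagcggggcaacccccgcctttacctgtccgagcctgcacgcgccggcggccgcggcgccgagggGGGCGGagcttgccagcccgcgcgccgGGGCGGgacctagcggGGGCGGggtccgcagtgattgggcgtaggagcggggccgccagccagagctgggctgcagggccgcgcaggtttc

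The upstream BMF window held 1 GC box, 45 bases before the start, and no match to the other 5 motifs. The other BMF window held no match to any of the 6. GC boxes are common, with a match in 42.6% of the 35116 windows of this length in the table. The BCL2L11 window held a forkhead match 223 bases before the start, a motif present in 2.98% of all windows, and 3 GC boxes. Among the other members, the BCL2A1 window held a match to the interferon response core (3.02% of windows) 133 bases before the start. The BAX window held 4 E-boxes at 138, 93, 45 and 14 bases before the start, a number reached by 5 of the 35116 windows (0.0142%). The BBC3 window held 1 E-box and 1 AP-1 match, which occur in 6.34% and 6.57% of windows. A match is a run of letters, not a bound site.

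MCL1, a short-lived pro-survival protein that most myeloma cells need, rose in OPM2 and did not pass the test in H929. In OPM2 it was at 410.8, 395.2 and 409.0 CPM with DMSO and at 583.8, 522.6 and 535.4 CPM with dBRD9-A. The H929 levels were 1153, 1019 and 1192 CPM with DMSO and at 1260, 936.7 and 1012 CPM with dBRD9-A. The OPM2 groups did not overlap, whereas the treated H929 libraries lay on both sides of their DMSO libraries. The log2 fold change in OPM2 was 0.43 ± 0.12 (1.35-fold, 95% interval 0.17 to 0.70, edgeR adjusted p = 0.0311). In H929 it was -0.07 with an interval of -0.34 to 0.20 (edgeR adjusted p = 0.783).

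The OPM2 rise of MCL1 kept its direction in all 23 alternatives, with log2 values of 0.38 to 0.48 and adjusted p of 0.000235 to 0.112, and lost its call in 10 of them, including the fit without the low-count filter (0.0515) and that of OPM2 alone (0.0655). Leaving out OPM2 DMSO replicate 1, 2 or 3 gave edgeR adjusted p-values of 0.0923, 0.112 and 0.0922, and leaving out OPM2 dBRD9-A replicate 1 gave 0.0876. Leaving out H929 DMSO replicate 1, 2 or 3 or H929 dBRD9-A replicate 3 gave 0.0593, 0.0514, 0.0605 and 0.0606. These libraries enter the OPM2 comparison through the shared spread, the filter and the TMM scaling. The log2 value was then 0.409, 0.408, 0.408 and 0.409. Without OPM2 dBRD9-A replicate 2 the adjusted p was 0.00766. The response in H929 minus that in OPM2 was -0.50 ± 0.17 on the log2 scale, with an unadjusted edgeR p of 0.0134 and an adjusted p of 0.362.

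In all, 2 of 10 members were called in OPM2, BMF and MCL1, both higher, where 17.4% of all genes tested were called, 10.1% higher and 7.36% lower. In H929 1 of 10 was called, BMF, where 13% of all genes were called, 7.33% higher and 5.67% lower. The median log2 fold change over the 10 members was -0.14 in OPM2 and 0.08 in H929, against 0.03 and 0.00 (-0.002) over all genes tested. By the simpler count of groups without overlap, 6 of 10 members differed in OPM2 (BCL2, MCL1, BCL2A1, BCL2L11, BMF and BAX), where 37.7% of all genes did, and 2 of 10 in H929 (BCL2L1 and BMF), where 45.5% did. The OPM2 median and this OPM2 count both include BCL2A1, which had 2 counts in each DMSO library and 0 in each treated library. Nothing is read from its place in them. The counts of called members are near these shares of all genes.

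**Figure D2:**
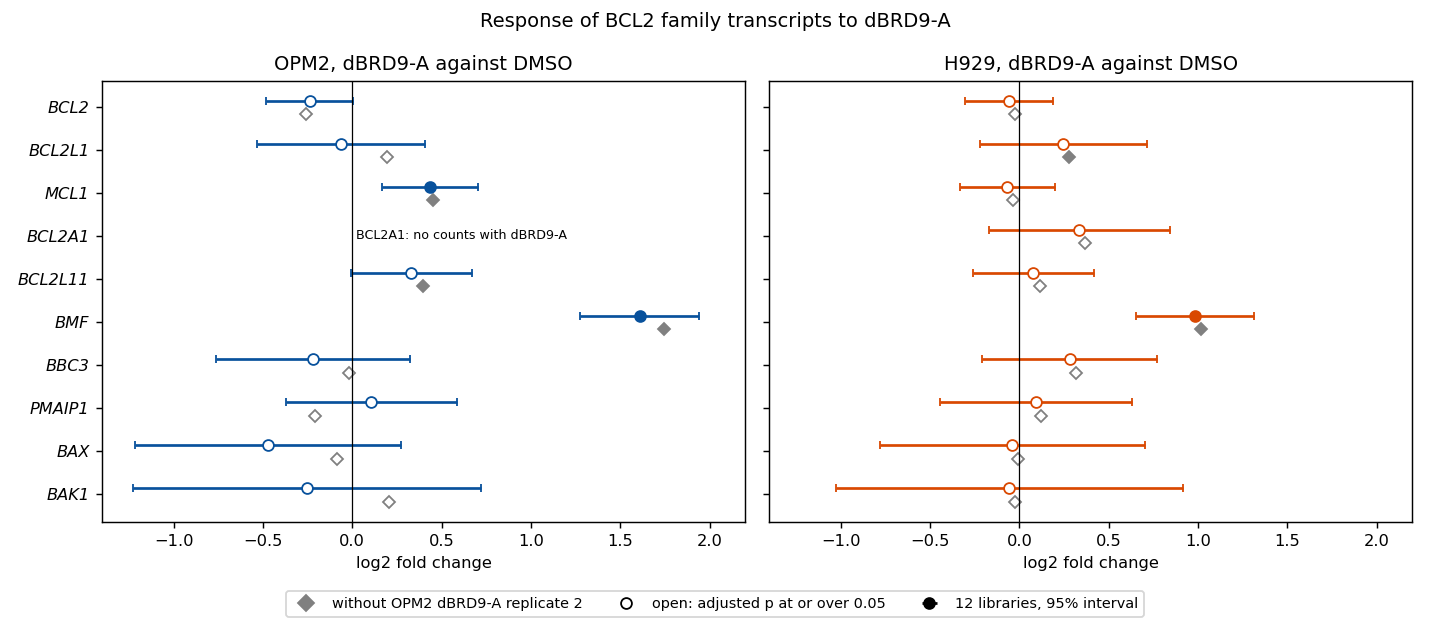
Log2 fold change of each member with dBRD9-A against DMSO in OPM2 (left) and H929 (right). Circles with bars are edgeR estimates from 12 libraries with 95% intervals, diamonds are estimates without OPM2 dBRD9-A replicate 2, and filled symbols have an adjusted p under 0.05. BMF is filled in both lines (1.61 and 0.98), MCL1 only in OPM2 (0.43), and BAX and BAK1 have the widest OPM2 intervals of the 9 members drawn there. BCL2A1 in OPM2, with no counts in the treated libraries, is not drawn.

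BCL2, the founding pro-survival gene, was at 99.4, 92.2 and 104.5 CPM in OPM2 with DMSO and at 85.1, 84.4 and 81.4 CPM with dBRD9-A. All treated libraries lay below all DMSO libraries. The log2 fold change was -0.24 ± 0.11, and its interval of -0.48 to 0.004 just held 0 (edgeR adjusted p = 0.157). It was called lower with limma-voom (-0.23, adjusted p = 0.0197) and with the GC trend removed (-0.28, edgeR adjusted p = 0.0486), and not in the other 21 alternatives (adjusted p up to 0.351). The H929 levels were 24.5, 29.8 and 25.4 CPM with DMSO and 25.9, 23.0 and 27.6 with dBRD9-A, with overlapping groups and a log2 fold change of -0.06 (edgeR adjusted p = 0.802).

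BCL2L1, whose main product BCL-XL guards the mitochondrion and whose short splice form does the opposite, was at 27.3, 24.5 and 27.3 CPM in OPM2 with DMSO. With dBRD9-A it was at 30.5, 14.5 and 30.3 CPM, the low value being replicate 2. The log2 fold change was -0.06 with all libraries and 0.19 without replicate 2, with edgeR adjusted p of 0.874 and 0.114. In H929 it was at 58.5, 66.3 and 66.1 CPM with DMSO and at 76.6, 79.7 and 70.1 with dBRD9-A, and these groups did not overlap. The H929 log2 fold change was 0.25 ± 0.22 (interval -0.22 to 0.71, edgeR adjusted p = 0.514). With OPM2 dBRD9-A replicate 2 out of the fit, which sets part of the shared spread, it was 0.28 with an adjusted p of 0.0130, and over 23 alternatives the adjusted p was 0.0130 to 0.669.

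BCL2A1, an NF-kB-driven pro-survival gene of lymphoid cells, was nearly silent in OPM2. It had 2 counts in each DMSO library and 0 in each treated library. Against a floor of 3 counts over the treated group, the DMSO level was 1.41-fold that floor. This takes the 6 DMSO counts as exact and leaves out their counting error, so 1.41 is not a lower bound on a fall. No test is read from these 6 counts. In H929 it was at 4.32, 2.92 and 2.403 CPM with DMSO and at 3.84, 4.34 and 4.01 with dBRD9-A, with overlapping groups (log2 fold change 0.34, edgeR adjusted p = 0.394).

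Of the other BH3-only genes, none was called in either line with all 12 libraries. BCL2L11 encodes BIM, which binds all pro-survival members and can activate the pore formers. It was at 38.0, 37.0 and 34.2 CPM in OPM2 with DMSO and at 50.9, 40.5 and 45.8 with dBRD9-A, without overlap. The log2 fold change was 0.33 ± 0.16 with edgeR adjusted p = 0.159, and without replicate 2 it was 0.40 with adjusted p = 0.0361 (0.0024 to 0.351 over 23 alternatives). In H929 the levels of 24.8, 35.3 and 30.3 CPM with DMSO and 33.5, 26.2 and 35.5 with dBRD9-A overlapped (log2 fold change 0.08).

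BBC3 encodes PUMA, a BH3-only activator of apoptosis. It was low everywhere: 1.04, 1.01 and 0.99 CPM in OPM2 with DMSO and 0.95, 0.46 and 1.07 with dBRD9-A. H929 held 2.77, 3.31 and 2.85 CPM with DMSO and 3.16, 4.09 and 3.62 with dBRD9-A. Both pairs of groups overlapped, and the log2 fold changes were -0.22 and 0.28 (edgeR adjusted p = 0.574 and 0.472). The OPM2 value without replicate 2 was -0.02.

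PMAIP1 encodes NOXA, which binds MCL1 and speeds its destruction. In OPM2 it was at 15.9, 15.8 and 19.8 CPM with DMSO and at 14.2, 25.8 and 15.6 with dBRD9-A, the high value being replicate 2. The log2 fold change was 0.11 with all libraries and -0.21 without replicate 2, and neither passed the test (edgeR adjusted p = 0.775 and 0.291). H929 held 1.60, 1.60 and 1.68 CPM with DMSO and at 2.18, 1.64 and 1.40 with dBRD9-A, with overlap and a log2 fold change of 0.09.

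BAX and BAK1 form the pores. In OPM2 BAX was at 53.0, 54.2 and 54.1 CPM with DMSO and at 51.4, 13.7 and 50.6 with dBRD9-A. BAK1 was at 159.7, 128.1 and 161.6 CPM with DMSO and at 175.2, 28.3 and 173.1 with dBRD9-A. For both genes replicate 2 alone was low, at 0.268 and 0.162 times the mean of its group mates. The log2 fold changes were -0.47 ± 0.34 and -0.25 ± 0.45 with all libraries, and -0.09 and 0.21 without it (edgeR adjusted p = 0.363 and 0.735, then 0.543 and 0.127). In H929 BAX was at 97.9, 97.5 and 86.0 CPM with DMSO and 81.2, 104.2 and 88.3 with dBRD9-A, and BAK1 at 133.6, 125.0 and 124.6 and at 119.6, 130.9 and 118.2. All these H929 groups overlapped, with log2 fold changes of -0.04 and -0.06.

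The place of replicate 2 followed the GC content of the member. The 5 members with over 50% GC were all below their group mates in it: BMF at 0.702, BCL2L1 at 0.478, BBC3 at 0.459, BAX at 0.268 and BAK1 at 0.162 times the mean of replicates 1 and 3. Of the 5 under 50%, BCL2L11 was at 0.837, MCL1 at 0.934, BCL2 at 1.01 and PMAIP1 at 1.73 times, and BCL2A1 had no counts. The BMF rise in OPM2 was 1.61 on the log2 scale with that library and 1.75 without it. Its part in the other results was not tested beyond leaving the library out and removing a trend with GC content.

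**Figure D3:**
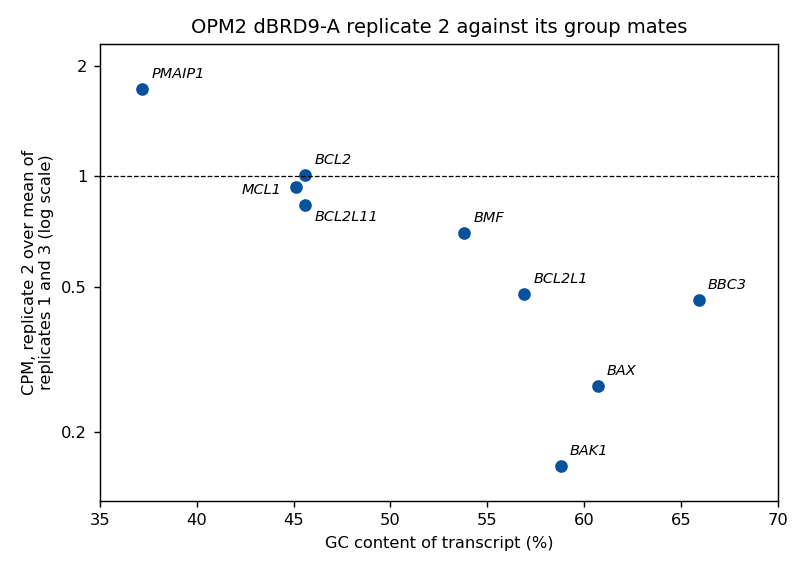
CPM of each member in OPM2 dBRD9-A replicate 2 divided by the mean of replicates 1 and 3 of that group (log axis), against the GC content of its transcript in percent. Points are the 9 members with counts. The 5 members over 50% GC lie below the dashed line at 1, down to 0.162 for BAK1, and PMAIP1 lies above it at 1.73.

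In DMSO the lines differed in most of the family. BCL2A1 entered the test only through its counts in H929, so its difference is a description and is left out of the counts here. Of the other 9 members, H929 was higher for 4, MCL1, BCL2L1, BMF and BBC3, and OPM2 was higher for BCL2 and PMAIP1. These 6 of 9 passed an adjusted p under 0.05 with at least a 2-fold difference, where 36.3% of all genes tested did (21.4% higher in H929 and 15% lower). The median log2 difference over the 9 members was 0.80, against 0.05 over all genes. In 7 of 9 the groups did not overlap, where 78.7% of all genes did not.

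Among the pro-survival genes, BCL2 had a log2 difference, H929 minus OPM2, of -1.90 ± 0.12 (26.5 ± 2.85 against 98.7 ± 6.18 CPM, edgeR adjusted p = 3.09e-08). MCL1 had 1.47 ± 0.13 (1121 ± 90.8 against 405.0 ± 8.52 CPM, edgeR adjusted p = 6.39e-07), and BCL2L1 had 1.27 ± 0.22 (63.6 ± 4.45 against 26.4 ± 1.64 CPM, edgeR adjusted p = 0.000277). BCL2A1 had 268, 164 and 133 counts in the H929 libraries against 2 in each OPM2 library. OPM2 thus held more BCL2 and H929 more of the other 3 pro-survival transcripts.

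Among the BH3-only genes, PMAIP1 had the largest difference, at 17.1 ± 2.31 CPM in OPM2 and 1.63 ± 0.05 in H929 (log2 -3.40 ± 0.25, edgeR adjusted p = 1.59e-07). BMF had 1.49 ± 0.15 and BBC3 1.56 ± 0.24, both higher in H929 (edgeR adjusted p = 3.48e-06 and 0.000103). BCL2L11 did not pass, at -0.27 (interval -0.61 to 0.06, edgeR adjusted p = 0.147). BAX was at 93.8 ± 6.74 CPM in H929 and 53.8 ± 0.65 in OPM2, with no overlap, a log2 difference of 0.80 ± 0.34 and an edgeR adjusted p of 0.0602. With OPM2 dBRD9-A replicate 2, whose BAX level widens the shared spread, out of the fit, the BAX difference was 0.77 with adjusted p = 1.04e-06 (3.04e-07 to 0.149 over 23 alternatives), still under 2-fold. BAK1 did not pass, at -0.23 (interval -1.20 to 0.74).

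None of the 10 members was called in the edgeR test of the difference between the responses of the lines, in which 0.579% of all genes were called, 0.293% with a more positive and 0.286% with a more negative response in H929. At an unadjusted edgeR p under 0.05 there were 3, MCL1 (0.0134), BMF (0.0120) and BCL2A1. By p-value they ranked 603, 570 and 404 of 16409 genes, so many other genes passed that threshold too. DESeq2 called 0 members, where 1.16% of all genes were called with a more positive and 1.11% with a more negative response in H929. Limma-voom called 3, again BMF, MCL1 and BCL2A1, where these shares were 2.55% and 2.82%. The BCL2A1 value rests on the 6 counts of OPM2, and nothing is read from it.

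Divided by transcript length, so that genes can be set beside each other, MCL1 led the family in all 4 groups. In OPM2 with DMSO it was at 99.2 ± 2.09 CPM per kb. BAK1 (68.3 ± 8.58) and BAX (62.6 ± 0.76 CPM per kb) followed and overlapped each other. Then came BCL2 at 15.2 ± 0.95, followed by BMF (10.4), BCL2L1 (10.3) and PMAIP1 (8.85 CPM per kb), where each overlapped the next in the order. BCL2L11 was at 6.97 CPM per kb, BBC3 at 0.55 and BCL2A1 at 0.03, each apart from the gene before it.

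In H929 with DMSO MCL1 was at 274.5 ± 22.2 CPM per kb, then BAX at 109.2 ± 7.85, BAK1 at 58.3 ± 2.31, BMF at 29.2 ± 1.38 and BCL2L1 at 24.9 ± 1.74, without overlap between neighbours. BCL2L11 was at 5.77 CPM per kb. BCL2 (4.09) and BCL2A1 (3.41 CPM per kb) followed and overlapped, and BBC3 (1.63) and PMAIP1 (0.84) came last. BCL2 was thus 4th of 10 in OPM2 and 7th in H929, and PMAIP1 7th and 10th.

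With dBRD9-A, BMF moved up the order in both lines. In OPM2 it went from 5th to 4th, at 31.7 ± 6.38 CPM per kb against 12.9 ± 0.30 for BCL2. In H929 it went from 4th to 3rd, at 57.8 ± 1.10 CPM per kb, where it overlapped BAK1 (56.0 ± 3.18). The other places stayed, apart from BCL2A1 and BCL2 in H929, which overlapped in both groups, and from BMF's neighbours.

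**Figure D4:**
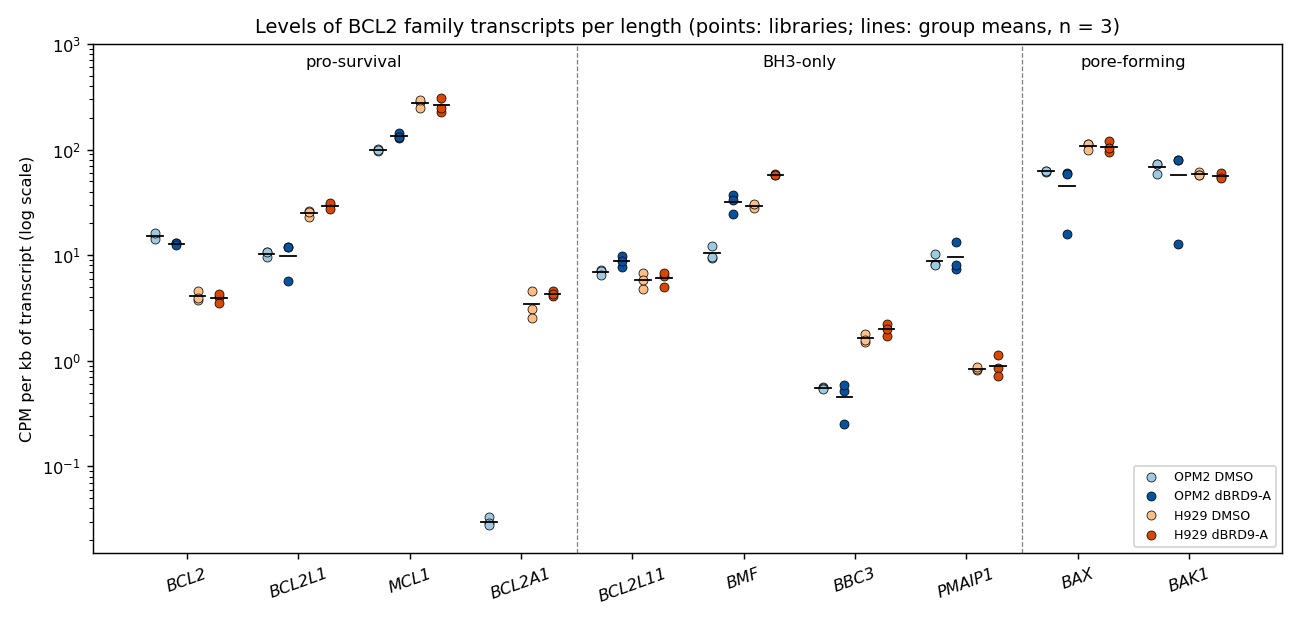
Level of each member per length (CPM per kb, log axis), by role and by group. Points are libraries and short lines are group means (n = 3), and BCL2A1 in treated OPM2 is listed at 0 and cannot be drawn. MCL1 is highest in all 4 groups, and BMF moves from 10.4 to 31.7 in OPM2 and from 29.2 to 57.8 in H929.

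Ratios of levels per length within a library put the roles beside each other. MCL1 over BCL2 was 6.57, 6.81 and 6.22 in OPM2 with DMSO and 10.9, 9.84 and 10.5 with dBRD9-A, without overlap. In H929 it was 74.9, 54.4 and 74.7 with DMSO and 77.5, 64.7 and 58.3 with dBRD9-A, with overlap. BCL2 over BCL2L1 was 1.48 ± 0.04 in OPM2 and 0.164 ± 0.013 in H929 with DMSO. BMF over MCL1 was nearly the same in both lines, 0.105 ± 0.019 and 0.107 ± 0.004 with DMSO, and 0.236 ± 0.037 and 0.224 ± 0.036 with dBRD9-A.

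As a share of the summed level per length of all 10 members, the BH3-only genes made up 8.88 to 10.4% in OPM2 with DMSO and 14.7 to 20.8% with dBRD9-A, where the highest value was replicate 2. In H929 they made up 7 to 7.56% and then 11.8 to 13.1%. BMF alone went from 3.27 to 4.55% up to 9.67 to 11.2% in OPM2, and from 5.64 to 5.84% up to 10.2 to 11.4% in H929. The groups did not overlap in either line. The pore formers made up 45.0 to 47.1% in OPM2 with DMSO, and 38.5, 13 and 40.1% in its treated replicates 1, 2 and 3. These are shares of RNA and say nothing of the protein.

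The files list between 1 (BAK1, PMAIP1) and 18 (BCL2L11) transcript rows per member, and a read was counted for every row it overlaps. For BMF, the 4388-base row had 0.99 times the count of the row used, in every group mean. Both rows take nearly the same reads, so they are not separate readings of the BMF rise. MCL1 has a short splice form without exon 2 that is known to promote death. The reads that only rows with exon 2 take made up 1.76 to 2.3% of the MCL1 count in 11 libraries and 3.58% in OPM2 dBRD9-A replicate 2. The BAX row of 891 bases had 0.96 to 1.02 times the count of the row used in 11 libraries and 1.42 times in that replicate. Reads of genes on the opposite strand may be included, since whether counting used strand was not given in the sources used here. BMF shares 461 of its 5447 exon bases with BMF-AS1, BCL2L11 shares 727 with MIR4435-2HG, and BCL2L1 shares 1424 with ABALON.

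Around the family, 8 lists named 72 gene symbols, and 67 of them were tested in the same fit. SMAC, another name of DIABLO, was listed but is not among the symbols read. The apoptosome and its executioners, which act after cytochrome c is released, were the list with most called genes. In OPM2 8 of 14 fell and none rose, where 7.36% of all genes tested fell. Their median change was -0.39 on the log2 scale, against 0.03 over all genes. In H929 4 fell and 1 rose, with a median of -0.21, where 5.67% of all genes fell and 7.33% rose. The list holds CAD, which here is a pyrimidine synthesis enzyme and not the nuclease once given that name. Without it the counts were 7 of 13 lower in OPM2 and 4 lower and 1 higher in H929. Some alternatives called fewer of the 14 and also fewer of all genes. With OPM2 DMSO replicate 1, 2 or 3 left out, 3 of the 14 were lower in OPM2, where 3.64%, 3.24% and 3.63% of all genes were. Without OPM2 dBRD9-A replicate 1 there were 4 (5.2% of all genes), as with scaling by library size alone (5.45%) and with the replicate block (5.27%). The OPM2 libraries fitted alone gave 2 (2.14% of all genes). In H929 1 to 2 were lower with any of its own 6 libraries left out, where 1.38 to 3.4% of all genes were.

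CYCS, cytochrome c itself, fell in both lines, with log2 fold changes of -0.72 in OPM2 and -0.69 in H929 (edgeR adjusted p = 0.000797 and 0.00139). DFFB, the nuclease that cuts DNA in dying cells, fell by 0.77 and 1.01 on the log2 scale (edgeR adjusted p = 0.0284 and 0.00720). CASP6, an effector caspase, fell in OPM2 by 0.91. HTRA2, a mitochondrial protease that relieves caspase inhibition, and PARP1, a DNA repair enzyme cut by caspases, fell in both lines. Their log2 fold changes were -0.48 and -0.335 in OPM2 (edgeR adjusted p = 0.0332 and 0.0296). In H929 they were -0.54 and -0.335 (edgeR adjusted p = 0.0247 and 0.0352). APAF1, the scaffold of the apoptosome, rose in H929 by 0.51 (edgeR adjusted p = 0.0483). DIABLO was not called in either line, nor was CASP9, which starts the cascade on that scaffold, with all 12 libraries. With OPM2 dBRD9-A replicate 2 left out, CASP9 was called higher in H929 (0.345, edgeR adjusted p = 0.0126, against 0.31 and 0.157 with it). CYCS in both lines and CASP6 in OPM2 stayed called in all 23 alternatives. In OPM2 and H929 the calls were lost in 5 and 2 for DFFB, in 8 and 7 for HTRA2 and in 5 and 13 for PARP1. The H929 call of APAF1 was lost in 13.

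Of 6 tested relatives among the other guardians and multidomain genes, 2 rose and 1 fell in OPM2 and none was called in H929. Beside this list and those that follow, 10.1% of all genes tested rose and 7.36% fell in OPM2. In H929 these shares were 7.33% and 5.67%. BCL2L2 (BCL-W), a pro-survival relative, rose by 0.74 in OPM2 (edgeR adjusted p = 0.00426). BCL2L15, at under 2 CPM in every library, rose by 2.16 (edgeR adjusted p = 0.00119). The readthrough transcript BCL2L2-PABPN1, at -0.34, shares exons with BCL2L2 and its value is uncertain. Of the 7 other BH3-only genes, BNIP3L, a mitophagy receptor, rose by 1.34 and BID, which links death receptors to mitochondria, fell by 0.46 in OPM2, and none was called in H929. BNIP3L stayed called in all 23 alternatives, whereas BCL2L2 lost its call in 1, BID in 7 and BCL2L2-PABPN1 in 19. With OPM2 dBRD9-A replicate 2 left out, BCL2L2 was called higher (0.29) and BID lower (-0.31) in H929 as well. No inhibitor of caspases among 6 was called in either line with all 12 libraries, with medians of 0.20 and 0.16. With that library left out, BIRC2 and BIRC3 were called higher in H929, at 0.37 and 0.71 (edgeR adjusted p = 0.00341 and 0.0171). In that fit 19.2% of all genes were called higher in H929.

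In the death receptor arm, 1 of 10 genes rose and 2 fell in OPM2, and none was called in H929. These counts without OPM2 dBRD9-A replicate 2 were 3 higher and 2 lower in OPM2, where 16.1% and 15.6% of all genes were. In H929 they were 5 higher (FAS, CASP8, TNFRSF10B, RIPK1 and TNFSF10) and 1 lower (TNFRSF10A), where 19.2% and 16.5% of all genes were. TNFSF10 was low in H929, at means of 0.31 CPM with DMSO and 0.67 with dBRD9-A. CFLAR, which blocks caspase-8 at the receptor, rose by 1.06 in OPM2 (edgeR adjusted p = 0.00138). TNFRSF10A, a TRAIL receptor, and FADD, its adaptor, fell by 0.54 and 0.40. VDAC1, a channel of the outer membrane, was the 1 of 4 membrane partners called, at -0.53 in H929, and none of these 4 was called in OPM2. CFLAR stayed called in all 23 alternatives, and the calls of TNFRSF10A, FADD and VDAC1 were lost in 6, 10 and 12.

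DYNLL2, the dynein light chain known to bind BMF, was the 1 of 10 genes of turnover and binding called in either line with all 12 libraries. It fell by 0.47 in both OPM2 and H929 (edgeR adjusted p = 0.00923 and 0.0114). In the fit without OPM2 dBRD9-A replicate 2, H929 also had USP9X higher (0.24, edgeR adjusted p = 0.0375) and FBXW7 lower (-0.40, edgeR adjusted p = 0.0039). Of 10 tested regulators of BH3-only transcription, SMAD3 and FOXO3 rose in both lines. SMAD3, which carries TGF-beta signals, had log2 fold changes of 1.76 and 1.29 (edgeR adjusted p = 0.000187 and 0.00156). FOXO3, a forkhead factor, had 0.44 and 0.50 (edgeR adjusted p = 0.0492 and 0.0348). SMAD3 stayed called in both lines in all 23 alternatives. The calls were lost in 1 and 3 for DYNLL2 in OPM2 and H929 and in 14 and 9 for FOXO3. With that library left out, the regulators had 2 higher and 3 lower in OPM2, where 16.1% and 15.6% of all genes were. In H929 they had 3 higher and 3 lower, where 19.2% and 16.5% of all genes were.

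Without OPM2 dBRD9-A replicate 2 more genes were called throughout, 31.7% of all genes in OPM2 and 35.7% in H929. The apoptosome list then had 9 lower and none higher in OPM2 (15.6% of all genes were lower) and 6 lower and 3 higher in H929 (16.5% and 19.2%), and the 4 membrane partners were all called lower in OPM2 and 2 of them in H929. The family itself had 3 of 10 higher in OPM2 (BMF, MCL1 and BCL2L11) and 2 of 10 in H929 (BMF and BCL2L1).

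**Figure D5:**
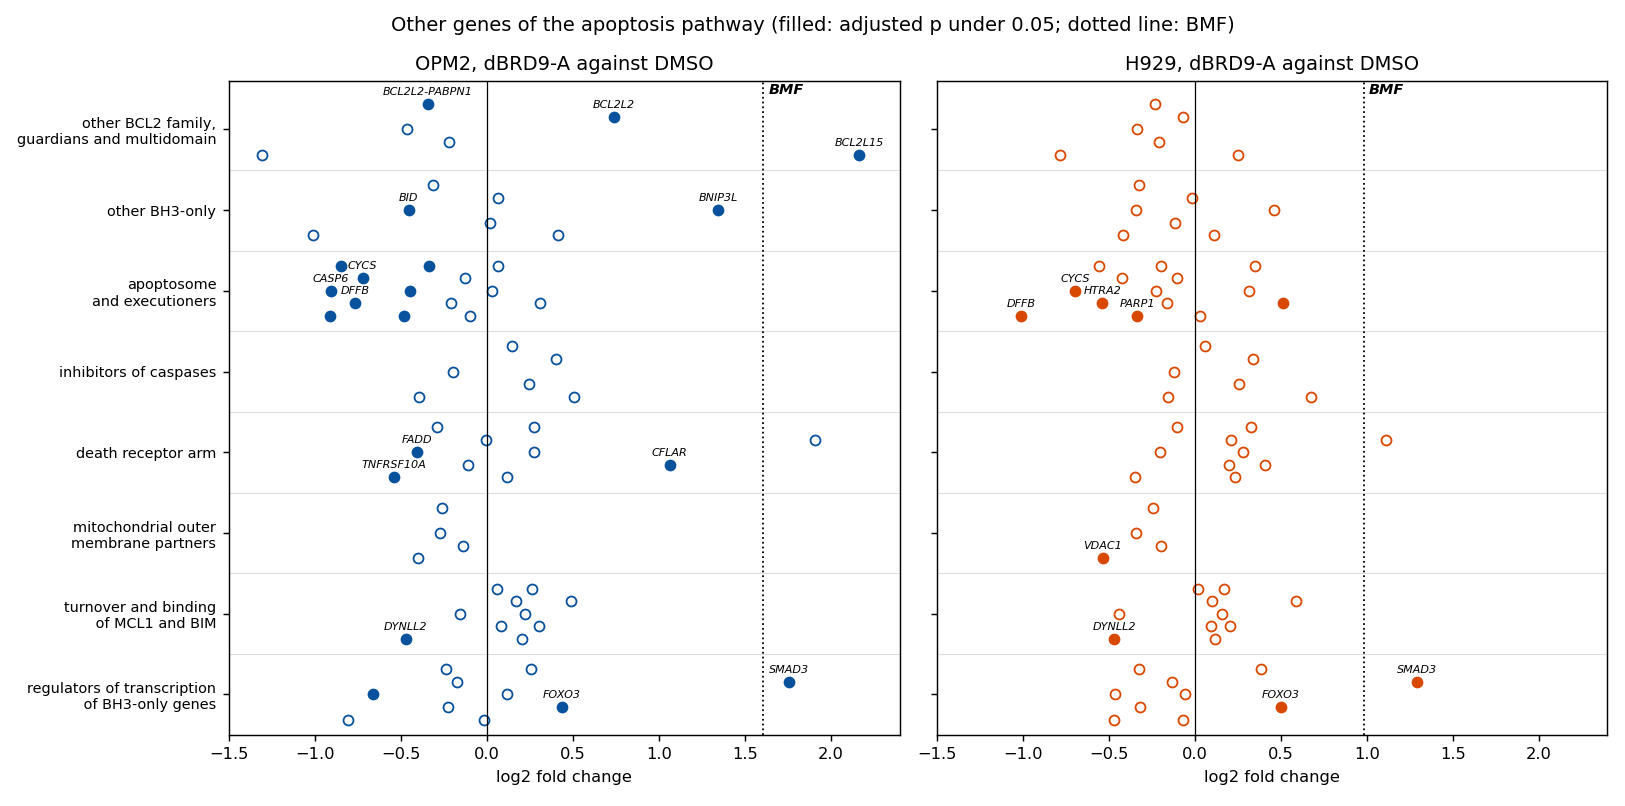
Log2 fold change with dBRD9-A against DMSO of the 67 tested genes of 8 apoptosis lists, in OPM2 (left) and H929 (right), with 1 row per list. Filled points have an edgeR adjusted p under 0.05, dotted lines mark BMF, and vertical shifts within a row only separate points. Filled points of the apoptosome row lie left of 0 in OPM2, and SMAD3 lies to the right of BMF in both panels.

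To name genes that follow the members most closely, log2 CPM were centred within each line and correlated over the 11 libraries without OPM2 dBRD9-A replicate 2. These libraries share the treatment and 2 lines, so the values only describe the pattern. KPTN and APOL1 were nearest to BMF (Pearson r = 0.991 for each), with log2 fold changes of 1.21 and 2.69 in OPM2 and 0.81 and 1.42 in H929. ARID4A and CTAGE5 were nearest to MCL1 (r = 0.949 and 0.946), VPS13B and ZNFX1 to BCL2L11 (0.975 and 0.958), and MACC1 and SAR1A to BCL2 (0.964 and 0.948). RRAGB and MAN1B1 were nearest to BCL2L1 (0.930 and 0.924), OAT and NUBPL to BCL2A1 (0.984 and 0.964), and MED16 and NAGLU to BBC3 (0.955 and 0.945). In OPM2 the BCL2A1 pattern rests on 6 counts, so nothing is read from its pair. PGM3 and ZNF28 were nearest to PMAIP1 (0.913 and 0.901), MZT2B and PSMB6 to BAX (0.974 and 0.968), and SELM and ICAM1 to BAK1 (0.945 and 0.928).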

How the data were processed

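RNA-seq libraries of OPM2 and H929 (12 in all) were read from per-library tables of 51780 RefSeq transcripts. STAR and featureCounts, without versions, and the builds hg19 and GRCh37 are named per the submitters' processing notes. Whether counting used strand was not given in the sources used here. Per the file headers, each row has a deposited count, FPKM and TPM. The deposited counts are raw whole numbers. The deposited FPKM values, which divide the count by length and by the column total, gave the transcript length. The deposited TPM values served as a check.

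Each symbol was represented by its row with the highest mean count. The filterByExpr rule by group kept 16409 genes, and libraries were scaled by TMM. Changes were tested with edgeR 4.0.16 (R 4.3.3, quasi-likelihood, group means, a gene's spread shared by all 12 libraries, 8 residual degrees of freedom), and p-values were adjusted over all genes by the Benjamini-Hochberg method. Genes with adjusted p under 0.05 were called, and between lines a log2 change of at least 1 in size was required as well. The fit was tested on simulated counts with 200 genes changed in treated OPM2. It called 58.1% of changes of 1 on the log2 scale and 94.7% of changes of 2. Smaller changes were not simulated, so a member that was not called may still have changed. Nothing in the labels says that replicates are separate cultures, and the p-values then reflect only library-to-library spread, possibly technical. Alternatives were RLE factors, library size alone, DESeq2 1.42.0, limma-voom 3.58.1, other filters, only the groups compared, a replicate block, sums over rows, GC and length trends removed (a GC value was found for 98.06% of genes) and each library left out. They were applied to the pathway genes after the data were seen.

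The members and lists were chosen with earlier results of these data known. The text names all members, BRD9, up to 4 called genes per list and treatment with a mean of at least 1 log2 CPM and the smallest adjusted p, and per member the 2 genes of highest correlation. APAF1, CASP9, DIABLO, BCL2L15, CAD, BIRC2, BIRC3, FAS, CASP8, TNFRSF10B, RIPK1, TNFSF10, USP9X and FBXW7 lie outside this rule and were chosen after their values were seen. Some genes that the rule names are not reported here. Start-site sequences are RefSeq's on GRCh38.p14, and since the files use an older build no other coordinates are given.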

Additional observations from a re-analysis of the deposited data

Results flagged for a closer look

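In the edgeR test of the difference of the responses, no BCL2 family member and 3 genes of the pathway lists were called, each with a response in H929 that differed from that in OPM2. For CASP6 the difference, H929 minus OPM2, was 1.26 on the log2 scale (1.257 ± 0.214, adjusted p = 0.0242): it went from 164.6 to 192.9 CPM with DMSO down to 78.3 to 106.4 with dBRD9-A in OPM2, and from 19.96 to 25.5 up to 26.3 to 34.5 in H929. For CFLAR it was -1.27 (-1.266 ± 0.227, edgeR adjusted p = 0.0328): it went from 31.4 to 33.6 CPM up to 57.3 to 85.8 in OPM2, and was at 100.5 to 125.9 and 92.7 to 113.9 CPM in H929. For BCL2L15, a little-studied relative, it was -2.50 (-2.502 ± 0.451, edgeR adjusted p = 0.0337), at low levels of 0.23 to 0.42 CPM with DMSO and 1.301 to 1.52 with dBRD9-A in OPM2 and 0.66 to 0.85 and 0.42 to 0.88 in H929. Of all genes tested 0.579% were called in this test. Over 22 alternatives the calls were lost in 8 for CASP6, 9 for CFLAR and 10 for BCL2L15, with adjusted p up to 0.0849, 0.121 and 0.117, among them the replicate block and most fits with a library left out. BCL2L15 was named after its values were seen. The cause was not tested.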

How the results depend on the processing

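Of 909 values of the 10 members under the alternatives, 839 kept direction and side of the threshold, 47 changed sign, 13 gained and 10 lost a call. The 6 members called between the lines, BCL2A1 aside, stayed called in all 23 alternatives, as did BMF in both lines. The 10 lost calls are all of MCL1 in OPM2. The number of members called in OPM2, 2 with all libraries, was 5 with limma-voom, 3 with the GC trend removed (BCL2 lower too), 3 with summed rows (BCL2A1 lower too), 1 without the low-count filter, 1 with only the groups compared in the fit, and 1 to 3 with a library left out. In H929, 1 became 2 with limma-voom (BCL2A1 too), 2 with the GC trend removed (BBC3 too) and 1 to 2 with a library left out. For the difference of responses, 0 became 3 with limma-voom and 0 to 1 with a library left out. The shares of all genes called moved too. In OPM2 10.1% were higher and 7.36% lower in the main fit. These shares were 23.2% and 20.9% with limma-voom, 16.8% and 10.2% with the GC trend removed, and 9.52% and 6.56% with summed rows. In H929 they went from 7.33% and 5.67% to 17.4% and 18.6% with limma-voom, and to 13.8% and 8.68% with the GC trend removed. Nothing about the family is read from these changes in its counts. No value that changed sign was called. In OPM2 these were BCL2L1, at 0.19 with limma-voom, 0.12 (0.115) with the GC trend removed, 0.03 (0.027) with the length trend removed and -0.227 to 0.194 with a library left out. BBC3 was at 0.115 with the GC trend removed. PMAIP1 was at -0.184 with limma-voom, -0.087 with the GC trend removed and -0.211 to 0.262 with a library left out. BAK1 was at 0.173 with limma-voom and -0.569 to 0.206 with a library left out. In H929 library size alone gave 0.038 for BCL2, 0.025 for MCL1, 0.056 for BAX and 0.039 for BAK1. Limma-voom gave 0.010 for BCL2, a filter of 1 CPM in 3 libraries gave 0.001 for BAX, removing the GC trend gave 0.037 for BAX and 0.011 for BAK1, and removing the length trend 0.044 and 0.024. With a library left out the H929 ranges were -0.089 to 0.056 for BCL2, -0.171 to 0.054 for MCL1, -0.006 to 0.235 for BCL2L11, -0.071 to 0.261 for PMAIP1, -0.109 to 0.069 for BAX and -0.068 to 0.014 for BAK1. The difference for PMAIP1, -0.015, became 0.058 with library size alone, 0.19 with limma-voom, 0.021 without the filter, 0.008 with the replicate block, 0.009 with summed rows, 0.245 with the GC trend removed and -0.172 to 0.332 with a library left out. For BAK1 it became -0.244 with limma-voom and -0.230 to 0.511 with a library left out. The cause of these changes was not tested. Deviations of same-numbered libraries correlated at -0.168 to 0.296, and those of libraries with other numbers at -0.612 to 0.703. In H929, DMSO replicates 1, 2 and 3 correlated most with dBRD9-A replicates 2, 3 and 1 (0.52, 0.703 and 0.647). A pairing other than by number was not tested. With the replicate block, which goes by the numbers, 2, 1, 7 and 0 members were called in OPM2, in H929, between lines and for the difference. Depth limits BCL2A1 in OPM2 (6 counts) and BBC3 (11 counts in OPM2 dBRD9-A replicate 2).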
